A study of Mus with 35 samples.

Results

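The genes described here are the importins, exportins, the Ran system and the nuclear pore proteins, the machinery that carries proteins and RNAs between the cytoplasm and the nucleus. They were chosen as a list of 48 mouse gene symbols, with earlier results of these data known. The symbols were looked up in the symbol column of the expression table, with no selection on their values at that step. All 48 were found, in 1 row each, among 55573 rows. All 48 also passed the filter used for testing, a mean of at least 1 TPM. TPM, the unit of the table, is a length-corrected share of the transcripts in a library, so levels can be compared between genes.

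The libraries came from brains of male C57BL/6J mice that carried P209L or R206W in the X-linked gene Hnrnph2 in hemizygous form, and from their wild-type (WT) littermates. Every mouse had received 30 µg of an antisense oligonucleotide (ASO) into the cerebral ventricles once, between postnatal days 2 and 4. The ASO was either directed against Hnrnph2 (Hnrnph2 ASO) or a control (Control ASO). The labels name no uninjected mice, so handling and the injection itself were shared by all groups. In the P209L cohort at 8 weeks of age the groups were P209L with Hnrnph2 ASO, P209L with Control ASO, WT with Hnrnph2 ASO and WT with Control ASO, with 3 libraries each. The R206W cohort, at 3 weeks of age, had R206W with Hnrnph2 ASO, R206W with Control ASO, WT with Hnrnph2 ASO and WT with Control ASO, again with 3 libraries each. The P209L cohort at 3 weeks of age had the same 4 kinds of group as at 8 weeks, with 2 libraries of P209L with Hnrnph2 ASO and 3 of each other group. WT libraries at 3 weeks were placed in a cohort by the run of library numbers and the style of animal names in their titles. Each title carries a different animal-style name, but no label states that the libraries are separate animals, so p-values measure the spread between these libraries. In the R206W cohort and in the P209L cohort at 3 weeks, the first part of that name never occurs with both ASOs. There the ASO and whatever the name marks cannot be told apart.

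As background, cargo proteins with a classical nuclear localization signal are held by an importin alpha adaptor (the Kpna genes) that is itself carried by importin beta (Kpnb1). Other importins and the exportins bind their cargo directly. The direction of transport comes from the small GTPase Ran, which is loaded with GTP in the nucleus by Rcc1 and made to hydrolyse it in the cytoplasm by Rangap1 with the help of Ranbp1 and Ranbp2. Importins and exportins pass with their cargo through the nuclear pore complex, which is built from nucleoporins. These are arranged in an outer Y complex, an inner ring, a membrane ring, a central channel, cytoplasmic filaments and a nuclear basket. The protein HNRNPH2 binds RNA in the nucleus, and the positions altered by P209L and R206W lie in its nuclear localization signal, which is read by the transportins rather than by importin alpha. Neurons use the same machinery to import signalling proteins and transcription factors.

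By summed TPM the 6 genes of the Ran system came first with a mean of 512.6 TPM, ahead of the 8 importin beta receptors with 463.7 TPM. The 7 genes of the Y complex summed to 103.2 TPM and the 5 of the inner ring to 60.6 TPM. Ran itself averaged 236.2 TPM over the 35 libraries and was the highest of the 48 genes. Rangap1 averaged 107.7 TPM, Ranbp1 73.3 TPM, Nutf2 (NTF2, which returns Ran to the nucleus) 60.5 TPM, Ranbp2 24.8 TPM and Rcc1, the nucleotide exchange factor, 10.1 TPM. Among importin beta receptors, Ipo4 averaged 83.5 TPM, Ipo9 82.9 TPM, Ipo13 74.7 TPM and Kpnb1 73.4 TPM, while Ipo8 averaged 18.8 TPM. Xpo6, the exportin of actin and profilin, led the export receptors with 63.9 TPM. Cse1l, which returns importin alpha to the cytoplasm, averaged 41.1 TPM, the tRNA exportin Xpot 40.1 TPM, the leucine-rich signal receptor Xpo1 33.1 TPM, Xpo7 28.7 TPM, the pre-miRNA exportin Xpo5 23.1 TPM and Xpo4 6.08 TPM. Of the pore proteins, the basket protein Tpr averaged 67.4 TPM and the Y complex member Nup37 3.75 TPM, the lowest of the 48. The median gene averaged 26.7 TPM, 12 genes reached 50 TPM and 5 stayed under 10 TPM.

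The 5 importin alpha genes had steady proportions. Of their summed TPM, Kpna1 took a median of 25.1% (range over libraries 23.4% to 27.7%), Kpna6 22.5% (21% to 24.7%), Kpna3 21.1% (19.2% to 23%), Kpna4 19.3% (17.6% to 20.7%) and Kpna2 11.8% (9.69% to 13.6%). Kpna2, the form that predominates in dividing cells, was the lowest of the 5 in every library. The germline form Kpna7, which is not on the list, averaged 0.000571 TPM.

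**Figure D1:**
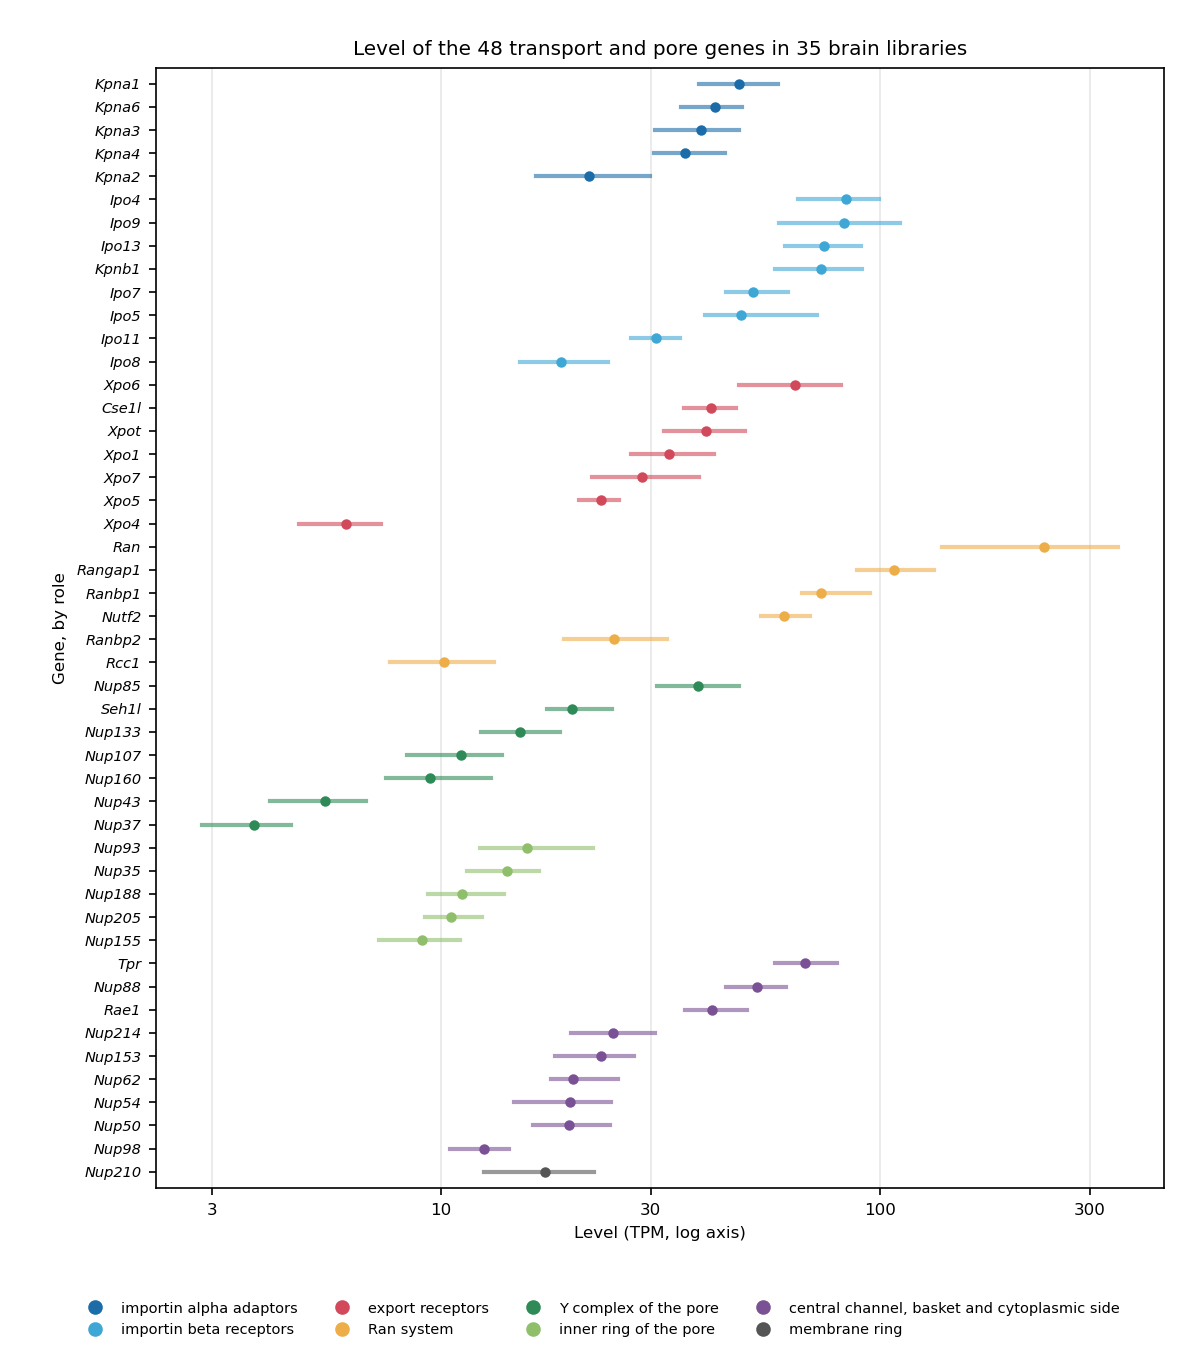
Mean level of each of the 48 genes (point) and the range from the lowest to the highest of 35 libraries (bar), in TPM on a log axis, ordered by role and then by mean. Ran lies at the top of the scale with 236.2 TPM and Nup37 at the bottom with 3.75 TPM, and most bars are short beside the differences between genes.

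The highest library was a median of 1.53 times the lowest, from 1.23 times for Xpo5 to 2.52 times for Ran. The median standard deviation within groups was 0.12 on the log2 scale for the 48 genes and 0.14 for all 16556 genes tested. Some genes share sequence with copies elsewhere in the genome, between which reads can be split. Nutf2 is the main case, because its processed copy Nutf2-ps1 was listed with a mean of 24.3 TPM beside 60.5 TPM for Nutf2. The copy Kpna2-ps averaged 0.153 TPM and the Ran-like Rasl2-9 0.285 TPM, and none of the Ranbp2 copies exceeded 0.11 TPM in a library.

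The intended target was reduced as the ASO labels say. Hnrnph2 stood between 6.95 and 23.9 TPM in the 8 mutant libraries with Hnrnph2 ASO, against 94.9 to 110.5 TPM in the 9 mutant libraries with Control ASO. It stood between 11.96 and 26.7 TPM in the 9 WT libraries with Hnrnph2 ASO, against 88.2 to 116.8 TPM in the 9 WT libraries with Control ASO. Library sums lay between 999999 and 1000001 TPM, the number of genes reaching 1 TPM lay between 16235 and 16649, and the sequencing depth is unknown. The series design speaks of whole brains and the extraction protocol of dissected cortex. Markers of cortical neurons summed to 255.5 to 354.7 TPM and markers of cerebellar granule and unipolar brush cells to 357.4 to 1068 TPM over the 35 libraries, so cerebellar RNA was present in all of them. In bulk RNA, fewer cells of a type and less RNA per cell cannot be told apart. Within groups, WT with Control ASO replicate 2 at 8 weeks was the lowest of its 3 libraries for 36 of the 48 genes, a position it held for 55.3% of all genes tested.

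The first comparison asked whether the mutations alone, under Control ASO, change the transport machinery. Over the 3 cohorts together, Xpo7 was higher and Nup35 lower in mutant than in WT brains, and the other 46 genes did not pass the test. Xpo7 is an exportin of broad specificity that also imports some cargo, and Nup35 (NUP53) is an inner ring nucleoporin that anchors the pore to the membrane. These were 2 of 48 genes (4.17%), beside 4.28% of all 16556 genes called (adjusted p under 0.05) in the same comparison, so the count was at the background. By direction, 2.55% of all genes were called higher and 1.73% lower. The median log2 change was 0.02 for the 48 genes and 0.01 for all genes.

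Xpo7 (chromosome 14, 70662126 to 70770864 on GRCm38.p6) had 34.4, 38.7 and 36.8 TPM in P209L with Control ASO at 8 weeks, against 30.4, 22.7 and 33.5 TPM in WT with Control ASO. In the R206W cohort it had 28.3, 25.5 and 26.6 TPM in R206W with Control ASO, against 27.3, 22.9 and 23.6 TPM in WT. At 3 weeks in the P209L cohort it had 35.9, 36.8 and 32.6 TPM in P209L, against 31.6, 26.3 and 29.4 TPM in WT. The P209L libraries lay above all WT libraries of their cohort at both ages, whereas the R206W and WT libraries overlapped. The means over the cohorts were 32.8 TPM in mutants and 27.5 TPM in WT, a log2 fold change of 0.25 (SE 0.07, limma adjusted p = 0.0371). Fold changes throughout are on the scale of log2(TPM + 1), which understates the change of genes at low levels. Within cohorts the log2 changes were 0.35 for P209L at 8 weeks, 0.12 for R206W and 0.26 for P209L at 3 weeks, none of them called alone (limma adjusted p = 0.784, 0.7 and 0.39). The difference between R206W and P209L at 3 weeks was -0.14 (SE 0.17, limma adjusted p = 1), so no difference between the mutations was shown.

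The Xpo7 call ended when any 1 of 11 libraries was left out, with limma adjusted p between 0.00983 and 0.0879 over all 35 omissions and log2 changes between 0.19 and 0.28. The 11 were all Control ASO libraries, namely P209L replicates 2 and 3 and WT replicate 2 at 8 weeks, R206W replicates 1 and 3 and WT replicates 2 and 3 of that cohort, and P209L replicates 1 and 2 and WT replicates 2 and 3 of the P209L cohort at 3 weeks. Without the filter on low values its adjusted p was 0.0778.

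Nup35 (chromosome 2, 80638812 to 80660071) went the other way. It had 11.95, 12.15 and 12.95 TPM in P209L with Control ASO at 8 weeks, against 14.9, 13.4 and 13.4 TPM in WT with Control ASO. In the R206W cohort it had 13.99, 14.36 and 13.46 TPM in R206W, against 16.6, 16.1 and 15.4 TPM in WT. At 3 weeks in the P209L cohort it had 13.5, 11.5 and 11.5 TPM in P209L, against 14.6, 14.7 and 15.5 TPM in WT. Mutant libraries were below every WT library of their own cohort in all 3 cohorts, the only one of the 48 genes with groups apart in this way, beside 1.37% of all genes tested. The means were 12.8 TPM in mutants and 14.96 TPM in WT, a log2 fold change of -0.21 (SE 0.05, limma adjusted p = 0.00775). Within cohorts the log2 changes were -0.16, -0.19 and -0.28 for P209L at 8 weeks, R206W, and P209L at 3 weeks. The call held in all 35 omissions of a library (limma adjusted p between 0.00387 and 0.0227).

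Markers of cerebellar granule and unipolar brush cells moved with genotype. They summed to 483.1 to 734.9 TPM in the 9 mutant libraries with Control ASO, against 475.3 to 1068 TPM in the 9 WT libraries, and 5 of the 10 markers were called lower in mutants (median log2 change -0.28). Of 9 mature oligodendrocyte markers, 4 were called lower (median -0.22). The mean log2 level of the cerebellar markers was also used as a covariate. Under it Nup35 had a log2 change of -0.17 (SE 0.06, limma adjusted p = 0.155). Xpo7 had one of 0.29 (SE 0.09, limma adjusted p = 0.0922). Neither passed then. The change of Xpo7 was no smaller than without the covariate, and both SEs were larger. The share of all genes called for mutation under the covariate is not given here. Of 7 oligodendrocyte precursor markers 3 were called lower, of 8 endothelial and mural markers 2, of 10 immature neuron markers 1, and of 6 Purkinje cell markers 1 was called higher. Dividing cell markers had no call among 9 tested (median -0.14), but their sum was lower in mutants without overlap in each cohort. It was 58.99 to 61.85 TPM in P209L and 62.3 to 68.2 TPM in WT at 8 weeks, 59.3 to 61.1 TPM in R206W and 63.95 to 66.5 TPM in WT of that cohort, and 55.6 to 60.05 TPM in P209L and 64.2 to 66.5 TPM in WT at 3 weeks. Precursor sums were 417.6 to 447.8 TPM in P209L and 508.3 to 574.2 TPM in WT at 3 weeks and 414.2 to 477.3 TPM in R206W and 492.9 to 493.7 TPM in WT, and they overlapped at 8 weeks. The part of these other cell types in either result was not tested.

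Next in order came Nup210, the membrane ring nucleoporin, and Ipo7, an importin of ribosomal and signalling proteins. Nup210 (chromosome 6, 91013067 to 91118322) averaged 18.5 TPM in mutants and 15.9 TPM in WT (log2 change 0.20, SE 0.07, limma adjusted p = 0.0932). At 3 weeks in the P209L cohort it had 22.3, 19.8 and 19.4 TPM in P209L, against 17.4, 15.6 and 15.4 TPM in WT, groups that did not overlap. In the other cohorts its mutant and WT libraries overlapped. Ipo7 averaged 49.3 TPM in mutants and 52.7 TPM in WT (log2 change -0.10, limma adjusted p = 0.198). After rescaling it passed (log2 change -0.11, limma adjusted p = 0.0453).

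The classical import route had no call for mutation. Of the 5 importin alpha genes none passed, with log2 changes between -0.10 (Kpna3) and 0.05 (Kpna2). Kpna1 averaged 46.3 TPM in mutants and 48.6 TPM in WT, Kpna2 22.3 and 21.6 TPM, Kpna3 36.6 and 39.5 TPM, Kpna4 35.4 and 36.0 TPM, and Kpna6 42.4 and 42.4 TPM. In the Ran system, Ran averaged 230.2 TPM in mutants and 229.1 TPM in WT, Ranbp1 72.6 and 73.6 TPM, Rangap1 109.0 and 107.7 TPM, Rcc1 9.43 and 10.3 TPM, and Nutf2 61.1 and 62.1 TPM. Their log2 changes lay between -0.11 and 0.02 and none passed (limma adjusted p between 0.339 and 0.929). For 46 of the 48 genes (95.8%) the 95% interval of the change lay inside 1.25-fold in either direction, compared with 82.4% of all genes. The exceptions were Xpo7 and Nup210.

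**Figure D2:**
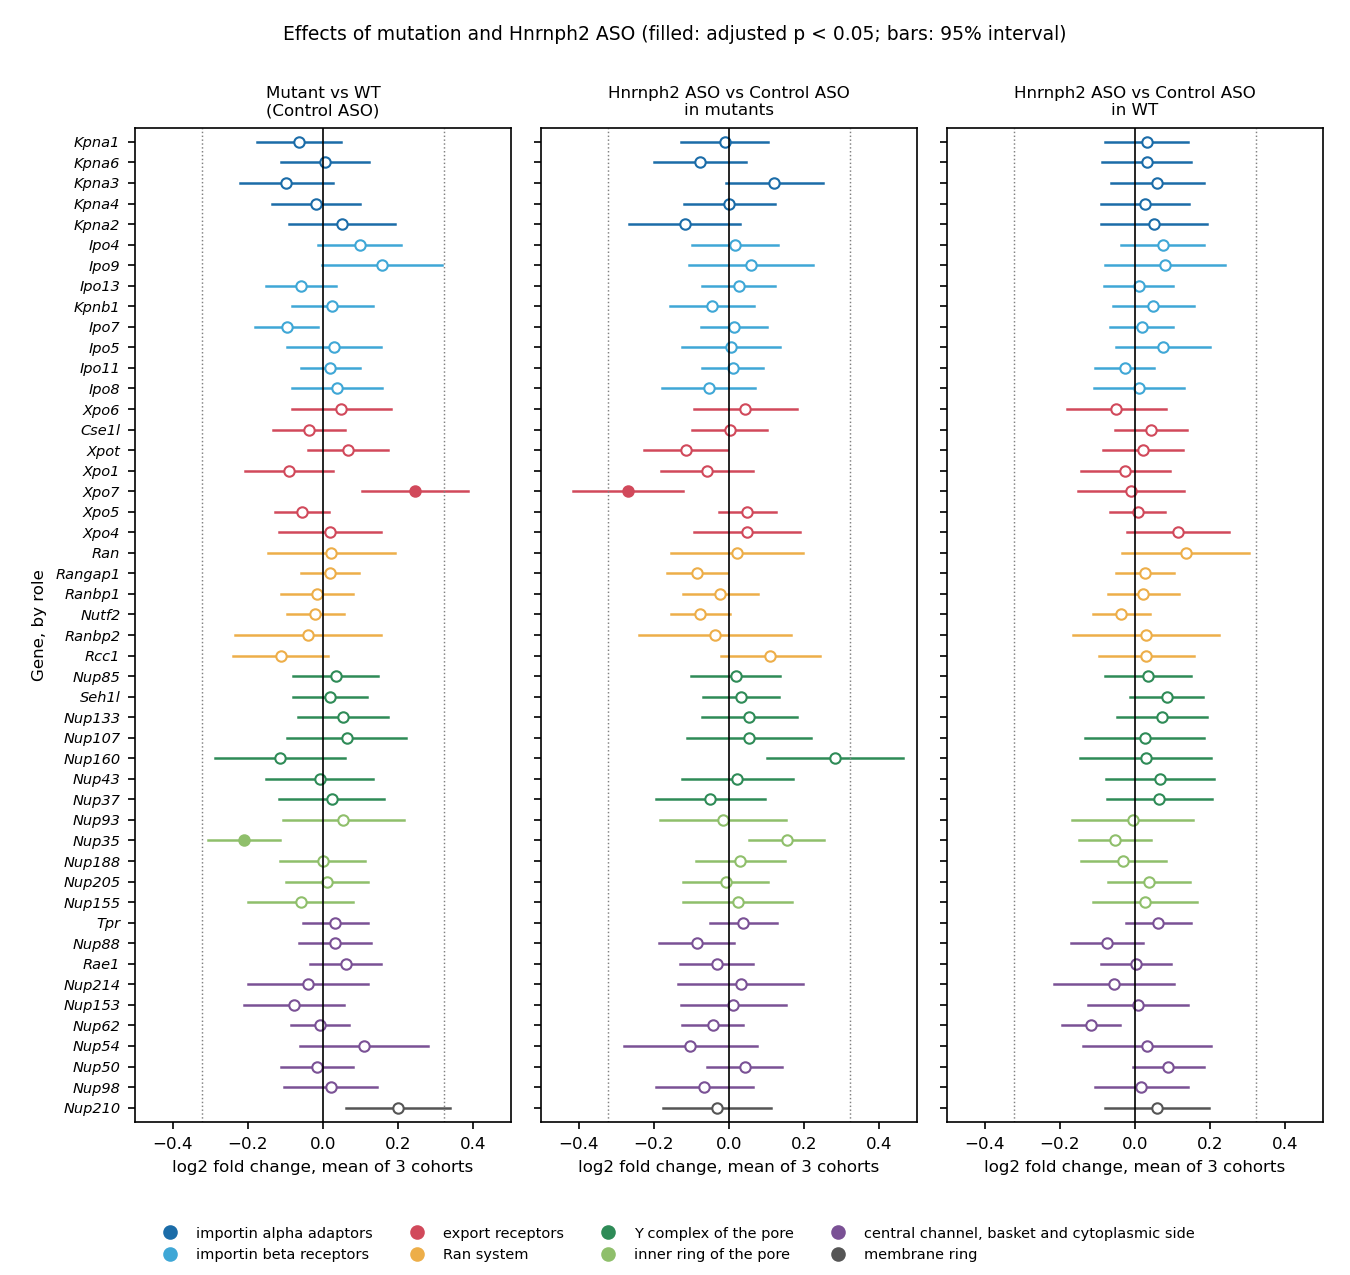
Log2 fold change, averaged over the 3 cohorts, of each of the 48 genes for mutant over WT under Control ASO (left), Hnrnph2 ASO over Control ASO in mutants (middle) and Hnrnph2 ASO over Control ASO in WT (right). Bars are 95% intervals, filled points passed the limma test at adjusted p under 0.05, and dotted lines mark 1.25-fold. Xpo7 is filled at 0.25 on the left and at -0.27 in the middle, and Nup35 is filled at -0.21 on the left.

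Within single cohorts, none of the 48 genes passed for mutation. In P209L at 8 weeks 0 of 48 were called, beside 0.17% of all genes. There 1 (2.08%) had an unadjusted p under 0.05, compared with 6.28% of all genes. In R206W at 3 weeks 0 were called, beside 0.133% of all genes, and 2 (4.17%) had an unadjusted p under 0.05, compared with 8.91%. For P209L mice of 3 weeks 0 were called, again beside 0.133%, and 7 (14.6%) had an unadjusted p under 0.05, compared with 8.86% of all genes. The smallest of these p-values belonged to Nup210, Xpo7, Nup35 and Ipo7 (log2 changes 0.32, 0.26, -0.28 and -0.18). With 3 libraries a group, the median standard error of a change was between 0.09 and 0.10 on the log2 scale in the 3 cohorts.

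In WT brains the Hnrnph2 ASO lowers the normal transcript, and no gene of the list was called for it. Over the 3 cohorts 0 of 48 genes passed, beside 0.187% of all genes. An unadjusted p under 0.05 was found for 1 gene (2.08%), compared with 9.49% of all genes. That gene was Nup62, a central channel nucleoporin, with means of 19.0 TPM under Hnrnph2 ASO and 20.7 TPM under Control ASO (log2 change -0.12, limma adjusted p = 0.268). All 48 intervals lay inside 1.25-fold, compared with 85.8% of all genes. Within cohorts 0 of 48 were called each time, beside 0.0182% of all genes at 8 weeks, 0.0121% in the R206W cohort and 0.0121% in the P209L cohort at 3 weeks. In that order, 2, 1 and 1 genes (4.17%, 2.08% and 2.08%) had an unadjusted p under 0.05, compared with 3.41%, 6.85% and 4.01% of all genes. At 8 weeks Ran had 267.5, 348.6 and 304.5 TPM with Hnrnph2 ASO, against 264.1, 192.7 and 258.4 TPM with Control ASO. The groups did not overlap and the log2 change was 0.37, but it did not pass (limma adjusted p = 0.957), and 1 of the Control ASO values came from the library that was low for 36 of the 48 genes. Over the 3 cohorts Ran averaged 250.7 TPM under Hnrnph2 ASO and 229.1 TPM under Control ASO (log2 change 0.14, limma adjusted p = 0.623). The importin alpha genes had log2 changes between 0.03 and 0.06 and none passed.

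In mutant brains the Hnrnph2 ASO lowers the transcript that carries the mutation. There Xpo7 fell, and it was the only one of the 48 genes called (2.08%), beside 2.5% of all genes, of which 1.19% were higher and 1.31% lower. Xpo7 had 27.2, 23.8 and 34.3 TPM in P209L with Hnrnph2 ASO at 8 weeks, against 34.4, 38.7 and 36.8 TPM in P209L with Control ASO. In the R206W cohort it had 26.1, 24.0 and 22.2 TPM with Hnrnph2 ASO, against 28.3, 25.5 and 26.6 TPM with Control ASO. At 3 weeks P209L brains had 27.4 and 29.8 TPM with Hnrnph2 ASO, against 35.9, 36.8 and 32.6 TPM with Control ASO. The groups were apart in the P209L cohort at both ages, narrowly so at 8 weeks, and overlapped in the R206W cohort. The means were 27.0 TPM with Hnrnph2 ASO and 32.8 TPM with Control ASO, a log2 fold change of -0.27 (SE 0.07, limma adjusted p = 0.0413). This comparison and the one for mutation share the mutant Control ASO libraries, so their opposite directions are not independent.

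The Xpo7 fall was also close to the threshold. It ended when any 1 of 13 libraries was left out (limma adjusted p between 0.00799 and 0.0985, log2 change between -0.23 and -0.31) and without the filter on low values (adjusted p = 0.0831). The 13 were, with Control ASO, P209L replicates 2 and 3 at 8 weeks, R206W replicates 1 and 3, P209L replicates 1 and 2 at 3 weeks and WT replicate 3 of the P209L cohort at 3 weeks. With Hnrnph2 ASO they were P209L replicates 1 and 2 at 8 weeks, R206W replicates 2 and 3, and P209L replicates 1 and 2 at 3 weeks. With the cerebellar covariate its change was -0.27 (limma adjusted p = 0.0381). Cerebellar markers did not move in this comparison, with 0 of 10 called and a median log2 change of -0.03. Of 7 microglia markers, 2 were called higher (median 0.17), and their part in the result was not tested.

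Nup160 and Nup35 were next. Nup160, a Y complex scaffold protein (chromosome 2, 90677215 to 90739327), had 10.4, 9.71 and 11.6 TPM in P209L with Hnrnph2 ASO at 8 weeks, against 7.68, 9.05 and 8.47 TPM with Control ASO. In the R206W cohort it had 12.96, 12.43 and 7.74 TPM with Hnrnph2 ASO, against 8.99, 8.67 and 7.5 TPM with Control ASO. At 3 weeks P209L brains had 9.42 and 10.99 TPM with Hnrnph2 ASO, against 8.15, 9.20 and 8.63 TPM with Control ASO. The P209L groups were apart and the R206W groups overlapped through 1 low library with Hnrnph2 ASO. The means were 10.6 TPM with Hnrnph2 ASO and 8.48 TPM with Control ASO (log2 change 0.28, SE 0.09, limma adjusted p = 0.0936). After rescaling of the libraries it passed (log2 change 0.28, limma adjusted p = 0.0457). Nup35 had 14.3, 14.5 and 14.6 TPM in P209L with Hnrnph2 ASO at 8 weeks, above the 11.95 to 12.95 TPM of P209L with Control ASO. At 3 weeks P209L brains had 14.4 and 13.7 TPM with Hnrnph2 ASO, against 13.5, 11.5 and 11.5 TPM with Control ASO, again apart. R206W brains had 15.2, 14.9 and 13.3 TPM with Hnrnph2 ASO, against 13.99, 14.36 and 13.46 TPM with Control ASO, which overlapped. Averaged over cohorts, Nup35 stood at 14.3 TPM with Hnrnph2 ASO and 12.8 TPM with Control ASO (log2 change 0.15, SE 0.05, limma adjusted p = 0.0984).

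**Figure D3:**
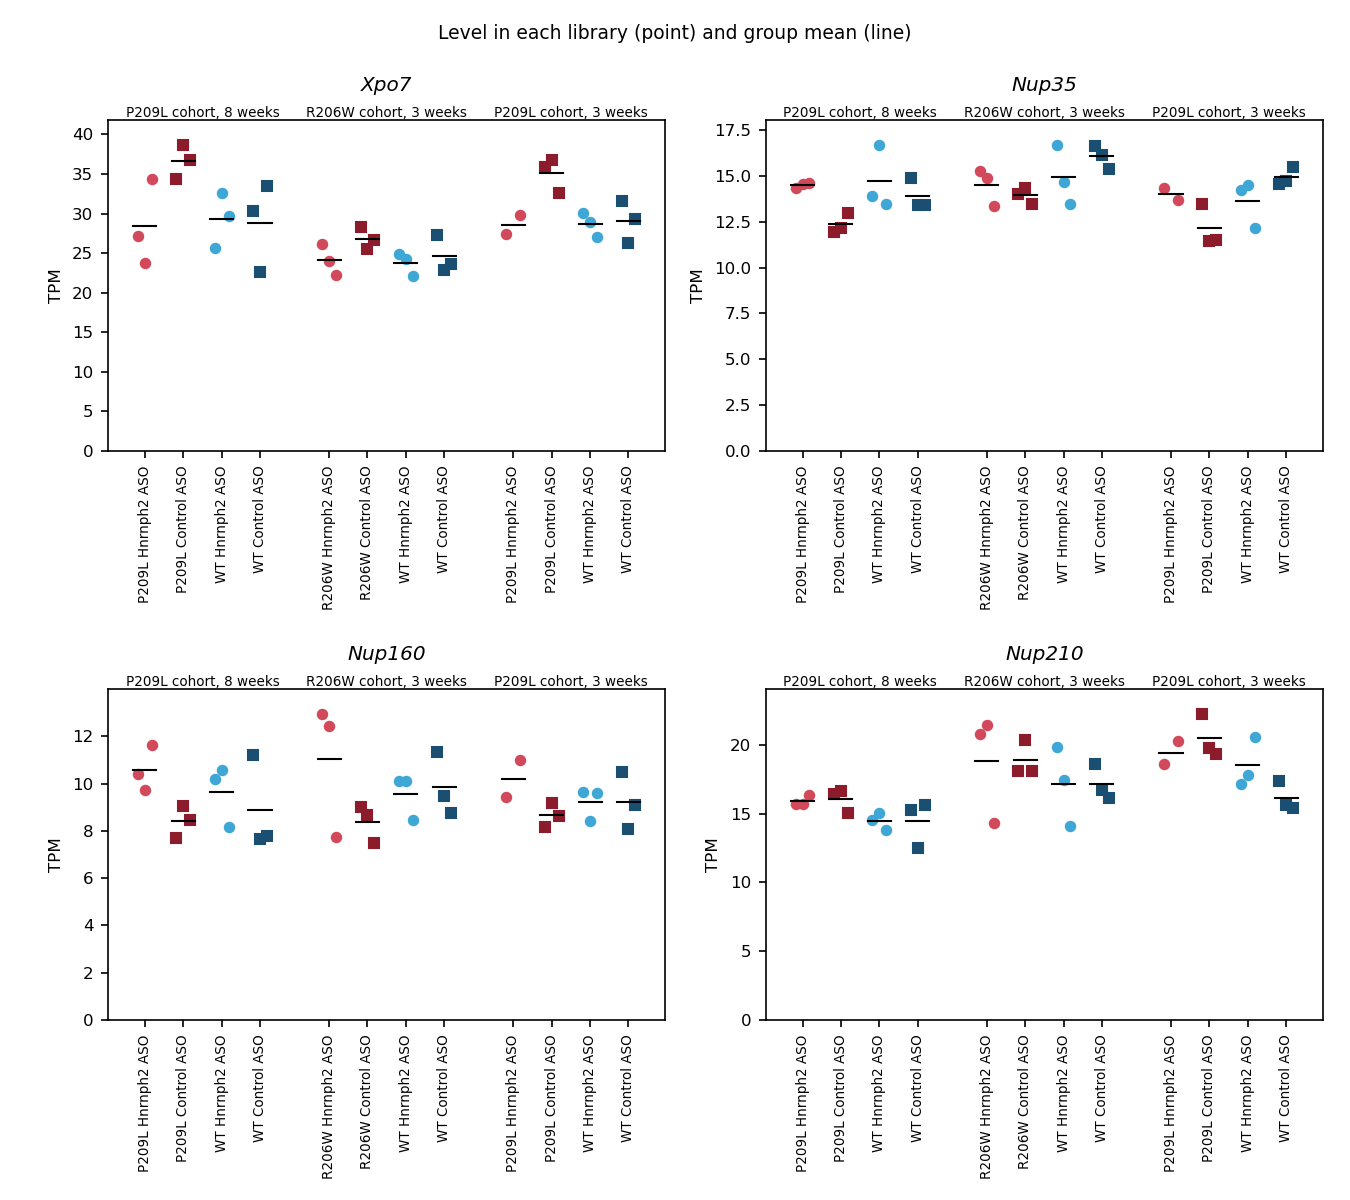
Level of Xpo7, Nup35, Nup160 and Nup210 in each library (points, TPM) and the mean of each group (line), by cohort, genotype and ASO. For Xpo7 the P209L Control ASO libraries are the highest of their cohorts (32.6 to 38.7 TPM), and for Nup35 the mutant Control ASO libraries lie below the WT Control ASO libraries in each cohort.

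Within single cohorts 0 of 48 genes were called for the ASO in mutants, beside 0.0908% of all genes in P209L at 8 weeks, 0.097% in R206W and 0.0969% in P209L at 3 weeks. Of all genes 6.27%, 7.74% and 6.81% had an unadjusted p under 0.05, and of the 48 genes 2, 1 and 1 (4.17%, 2.08% and 2.08%) in that order. Those genes were Nup35 and Xpo7 in P209L at 8 weeks (log2 changes 0.22 and -0.37), Rangap1 in R206W (-0.14) and Xpo7 in P209L at 3 weeks (-0.29). Over the 3 cohorts the importin alpha genes had log2 changes between -0.12 (Kpna2) and 0.12 (Kpna3), and Ran averaged 233.7 TPM under Hnrnph2 ASO and 230.2 TPM under Control ASO. Ranbp1 averaged 71.5 TPM under Hnrnph2 ASO and 72.6 TPM under Control ASO, Rangap1 103.0 and 109.0 TPM, Rcc1 10.3 and 9.43 TPM, and Nutf2 57.9 and 61.1 TPM, and none of them passed (limma adjusted p between 0.308 and 0.951).

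Whether the ASO acted differently in mutants and WT was tested as the difference of the ASO effects. None of the 48 genes passed, beside 0.302% of all genes. An unadjusted p under 0.05 was found for 4 genes (8.33%), compared with 7.26% of all genes. Nup35 had a difference of 0.21 (SE 0.07, limma adjusted p = 0.352), Xpo7 one of -0.26 (SE 0.10, adjusted p = 0.539), Nup160 one of 0.25 (SE 0.12, adjusted p = 0.688) and Rangap1 one of -0.11 (SE 0.05, adjusted p = 0.688). The Xpo7 and Nup35 responses in mutants are therefore not shown to differ from those in WT.

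For treated mutants no gene of the list passed against WT. Compared with WT under the same Hnrnph2 ASO, 0 of 48 genes passed in mutants, beside 0.67% of all genes. There 4 (8.33%) had an unadjusted p under 0.05, against 12.4% of all genes. Xpo7 averaged 27.0 TPM in mutants and 27.2 TPM in WT (log2 change -0.01, SE 0.07), and Nup35 14.3 TPM in mutants and 14.4 TPM in WT (0.00, SE 0.05). All 48 intervals lay inside 1.25-fold, compared with 82.9% of all genes. Set against WT with Control ASO, mutants with Hnrnph2 ASO had 0 of 48 genes called, beside 4.83% of all genes. In that comparison 5 (10.4%) had an unadjusted p under 0.05, against 18.7% of all genes. The smallest p belonged to Ipo9, an importin of histones, with 90.1 TPM in treated mutants and 77.0 TPM in control WT (log2 change 0.22, limma adjusted p = 0.13). Xpo7 differed by -0.02 (SE 0.07) and Nup35 by -0.06 (SE 0.05) in that comparison.

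Other genes of nucleocytoplasmic transport moved little with mutation, apart from Tnpo2. Tnpo2, a transportin, averaged 109.3 TPM in mutants with Control ASO and 64.6 TPM in WT with Control ASO (log2 change 0.75, limma adjusted p = 6.97e-12). It averaged 64.7 TPM in mutants with Hnrnph2 ASO (log2 change -0.74 against mutants with Control ASO, adjusted p = 3.07e-11). The other transportins, Tnpo1 and Tnpo3, were called in neither comparison. Of 7 further pore proteins tested, 1 was called higher in mutants, the membrane ring protein Pom121 (35.01 TPM in mutants and 31.1 TPM in WT, log2 change 0.17, limma adjusted p = 0.0425). Of 8 transport adaptors and other Ran-binding proteins, 1 was called lower, the snRNP import adaptor Snupn (10.47 TPM in mutants and 11.9 TPM in WT, -0.17, adjusted p = 0.00998). None of 17 mRNA export genes and none of 14 lamina and envelope genes was called for mutation, beside the 4.28% of all genes called. With the ASO in mutants 1 of these 46 genes, beside 2.5% of all genes, was called, the envelope protein Emd (36.6 TPM with Hnrnph2 ASO and 31.8 TPM with Control ASO, 0.20, adjusted p = 0.0455), and with the ASO in WT none was.

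More of the list was called for age than for mutation or ASO. In the P209L cohorts, averaged over the 4 groups, 14 of 48 genes (29.2%) were called between 8 and 3 weeks, beside 42.1% of all genes. Higher at 8 weeks were 4 genes (8.33%), beside 15.5% of all genes, and lower were 10, beside 26.6%. After rescaling of the libraries by median ratios, the median of all genes moved by 0.05 on the log2 scale, from -0.03 to 0.02. The split of the 48 genes was then 12 higher and 7 lower, so the balance of directions depends on scaling. The share of all genes called after rescaling is not given here or below, so the rescaled counts cannot be compared with it. The sizes as deposited were small, from -0.27 to 0.27. No called gene had its 8-week and 3-week libraries apart in all 4 groups, as 8.87% of all genes had. The 2 ages come from different sets of libraries, so age and collection cannot be told apart.

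The 4 genes that were higher at 8 weeks were called under either scaling, but without the filter on low values Ran (limma adjusted p = 0.0583) and Ipo7 (adjusted p = 0.0649) were not. Ipo8, an importin linked to SMAD and Argonaute transport, had 17.1 to 24.0 TPM in the 12 libraries at 8 weeks (median 21.4), against 16.0 to 20.5 TPM in the 11 libraries at 3 weeks (median 18.1). Its log2 change was 0.24 (SE 0.05, limma adjusted p = 0.000529). Nup43, a Y complex member, had 4.70 to 6.74 TPM at 8 weeks (median 5.93), against 4.07 to 5.63 TPM at 3 weeks (median 4.5), with a log2 change of 0.27 (SE 0.06, adjusted p = 0.00095). Ran had 192.7 to 348.6 TPM at 8 weeks (median 273.2), against 205.8 to 293.9 TPM at 3 weeks (median 238.5), with a log2 change of 0.20 (SE 0.07, adjusted p = 0.0271). The ranges overlapped in all 3 genes. Ipo7 rose by 0.09 (SE 0.04, adjusted p = 0.0409). The Ran call ended without any 1 of 4 libraries (at 8 weeks, WT with Control ASO replicate 1 and WT with Hnrnph2 ASO replicate 2; at 3 weeks, WT with Control ASO replicate 2 and P209L with Hnrnph2 ASO replicate 2), and that of Ipo7 without any 1 of 13. For Ipo7 these were, at 8 weeks, P209L with Hnrnph2 ASO replicate 3, P209L with Control ASO replicates 2 and 3, WT with Hnrnph2 ASO replicates 2 and 3 and WT with Control ASO replicates 1 and 3. At 3 weeks they were P209L with Hnrnph2 ASO replicate 2, P209L with Control ASO replicates 1 and 3, WT with Hnrnph2 ASO replicates 2 and 3 and WT with Control ASO replicate 2. Over the omissions the adjusted p reached 0.0808 for Ran and 0.104 for Ipo7.

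By group, the log2 change of Ran with age had both signs. It was 0.29 in P209L with Hnrnph2 ASO (276.1 TPM at 8 weeks and 224.5 TPM at 3 weeks) and 0.35 in P209L with Control ASO (275.9 and 216.3 TPM). It was 0.33 in WT with Hnrnph2 ASO (306.9 and 242.7 TPM) and -0.16 in WT with Control ASO (238.4 and 265.4 TPM). The groups were apart in the first 3 and overlapped in the last. None of these was called alone (limma adjusted p between 0.126 and 0.525). The difference of its age effects did not pass between Hnrnph2 ASO and Control ASO (0.22, SE 0.15, adjusted p = 1) or between P209L and WT (0.24, SE 0.15, adjusted p = 0.734).

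Genes that were lower at 8 weeks came from every role group. Among receptors, Xpo6 had 47.8 to 68.5 TPM at 8 weeks (median 52.6), against 53.7 to 75.6 TPM at 3 weeks (median 65.6), a log2 change of -0.26 (SE 0.06, limma adjusted p = 0.000524). Ipo9 had 58.7 to 92.4 TPM at 8 weeks (median 76.1), against 75.8 to 110.7 TPM at 3 weeks (median 89.9), a change of -0.25 (SE 0.07, adjusted p = 0.00461). Ipo13, which carries cargo in both directions, had 60.8 to 74.5 TPM at 8 weeks and 65.4 to 81.7 TPM at 3 weeks, a change of -0.15 (SE 0.04, adjusted p = 0.00389). All 3 sets of libraries overlapped between the ages. The adaptor Kpna2 had 16.5 to 22.6 TPM at 8 weeks (median 20.1), against 17.7 to 29.8 TPM at 3 weeks (median 24.0), a change of -0.22 (SE 0.06, adjusted p = 0.00616). The 4 other importin alpha genes did not pass, with log2 changes between -0.13 (Kpna3) and 0.06 (Kpna1), although Kpna1 and Kpna4 were called higher after rescaling (0.12 and 0.10).

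Among pore proteins, Nup210 had the largest fall. It had 12.5 to 16.7 TPM at 8 weeks (median 15.5), against 15.4 to 22.3 TPM at 3 weeks (median 18.6), with a log2 change of -0.27 (SE 0.06, limma adjusted p = 0.000632). The inner ring proteins Nup93 (-0.22, adjusted p = 0.0132) and Nup188 (-0.17, adjusted p = 0.00739), the basket protein Nup50 (-0.15, adjusted p = 0.00488) and the Y complex protein Nup133 (-0.14, adjusted p = 0.0271) were also called lower. Within the Y complex the called members thus moved in opposite directions. Rcc1, with 7.63 to 10.6 TPM at 8 weeks and 9.30 to 13.2 TPM at 3 weeks, changed by -0.14 (adjusted p = 0.0419). Rangap1 (114.5 TPM at 8 weeks and 108.9 TPM at 3 weeks), Ranbp1 (73.5 and 72.3 TPM) and Nutf2 (62.0 and 60.7 TPM) did not pass as deposited (adjusted p = 0.0665, 0.625 and 0.481). After rescaling, Rangap1 (0.14, limma adjusted p = 0.000539) and Nutf2 (0.09, adjusted p = 0.0454) were called higher at 8 weeks and Ranbp1 was not (adjusted p = 0.0876). After the same rescaling, Ipo13, Nup133 and Rcc1 no longer passed (limma adjusted p = 0.127, 0.109 and 0.182). Without the filter on low values Rcc1 had an adjusted p of 0.0751 and Nup133 one of 0.05, and neither passed. Nup133 also lost its call in 6 of 35 omissions of a library and Rcc1 in 12. For Nup133 (adjusted p up to 0.0766) the libraries were P209L with Control ASO replicate 1 and WT with Control ASO replicate 2 at 8 weeks, and P209L with Hnrnph2 ASO replicate 2, P209L with Control ASO replicate 1, WT with Hnrnph2 ASO replicate 3 and WT with Control ASO replicate 3 at 3 weeks. For Rcc1 (adjusted p up to 0.0984) they were, at 8 weeks, P209L with Hnrnph2 ASO replicate 3, P209L with Control ASO replicate 1, WT with Hnrnph2 ASO replicates 1 and 3 and WT with Control ASO replicates 1 and 2. At 3 weeks they were P209L with Hnrnph2 ASO replicate 1, P209L with Control ASO replicates 2 and 3, WT with Hnrnph2 ASO replicate 3 and WT with Control ASO replicates 1 and 2.

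Markers of several cell types moved with age in the same libraries. Mature oligodendrocyte markers summed to 6022 to 8628 TPM at 8 weeks, against 12580 to 16720 TPM at 3 weeks, and 8 of 9 were called lower. Of the immature neuron markers 9 of 10 were called lower and of the oligodendrocyte precursor markers 6 of 7, while 4 of 5 choroid plexus markers were called higher. Of 13 dividing cell markers 9 could be tested, with 2 called higher and 2 lower, and they summed to 59.0 to 69.4 TPM at 8 weeks and 55.6 to 84.9 TPM at 3 weeks. Their part in the changes of the 14 genes was not tested.

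**Figure D4:**
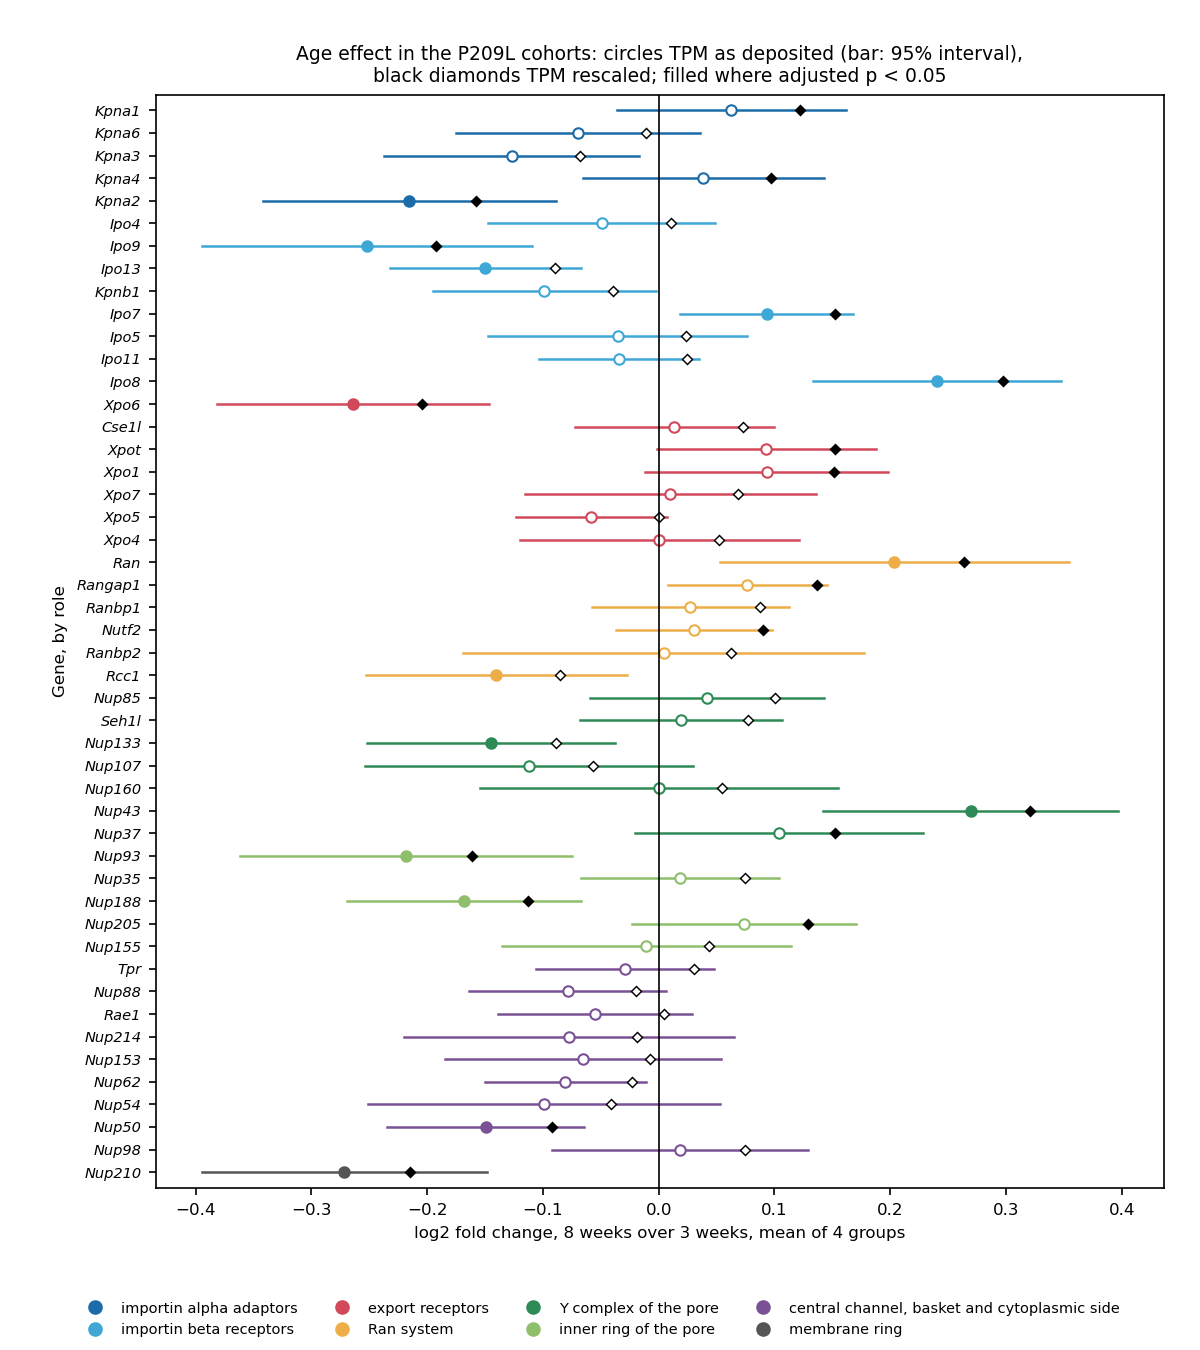
Log2 fold change of each of the 48 genes, 8 weeks over 3 weeks, averaged over the 4 groups of the P209L cohorts. Coloured circles with 95% intervals are TPM as deposited and black diamonds are TPM rescaled by median ratios, each filled where the limma adjusted p was under 0.05. The diamonds lie to the right of the circles, and 4 circles are filled to the right of 0 and 10 to the left, against 12 and 7 diamonds.

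By single group, fewer genes passed for age. In P209L with Hnrnph2 ASO 4 of 48 were called (8.33%), beside 15.8% of all genes. Rangap1 (116.6 TPM at 8 weeks and 98.1 TPM at 3 weeks, log2 change 0.25, limma adjusted p = 0.0185) and Nup43 (6.05 and 4.23 TPM, 0.43, adjusted p = 0.0299) were higher at 8 weeks. Ipo9 (73.9 and 102.2 TPM, -0.47, adjusted p = 0.0349) and Xpo6 (54.9 and 71.8 TPM, -0.38, adjusted p = 0.0351) were lower. This group had 2 libraries at 3 weeks, and leaving out replicate 2 there ended all 4 calls. At 8 weeks, leaving out replicate 1 ended the calls of Ipo9, Xpo6 and Nup43, replicate 2 that of Ipo9 and replicate 3 those of Xpo6 and Nup43, and at 3 weeks replicate 1 ended those of Xpo6 and Nup43. The adjusted p then reached 0.327 for Rangap1, 0.205 for Nup43, 0.328 for Ipo9 and 0.263 for Xpo6. After rescaling, 5 genes were called higher and 1 lower in this group. In WT with Hnrnph2 ASO 1 of 48 was called, beside 11.8% of all genes. It was Ipo13, with 64.3 TPM at 8 weeks and 79.4 TPM at 3 weeks (-0.30, adjusted p = 0.011), and its call ended without WT with Hnrnph2 ASO replicate 2 at 8 weeks (adjusted p = 0.06). After rescaling, 2 genes were called higher there and 0 lower. In P209L with Control ASO 0 of 48 were called, beside 10.2%, with 8 (16.7%) at an unadjusted p under 0.05, compared with 23.4% of all genes. In WT with Control ASO 0 of 48 were called, beside 11.4%, with 3 (6.25%) at an unadjusted p under 0.05, compared with 25.5% of all genes. Rangap1 had the smallest p for a difference of the age effect between P209L and WT (0.24, SE 0.07, adjusted p = 0.24), which did not pass.

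The 2 sets of WT brains at 3 weeks share age, strain and treatments by label and differ in cohort. In WT of the R206W cohort, compared with WT of the P209L cohort at 3 weeks, 11 of 48 genes (22.9%) were called, beside 27.1% of all genes. Higher was 1 gene (2.08%), beside 10.9% of all genes, and lower were 10, beside 16.2%. After rescaling the split was 4 higher and 10 lower. The lower genes as deposited were Ran, Rangap1, Kpna1, Kpna3, Kpna6, Kpnb1, Ipo5, Xpo7, Xpot and Nup62, and the higher gene was Nup85.

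Ran had 228.6, 175.1 and 203.5 TPM in WT with Hnrnph2 ASO of the R206W cohort, against 247.1, 238.5 and 242.4 TPM in the P209L cohort. With Control ASO it had 217.7, 138.2 and 195.0 TPM in the R206W cohort, against 293.9, 227.4 and 274.7 TPM in the P209L cohort. The cohorts did not overlap under either ASO, and the log2 change was -0.41 (SE 0.10, limma adjusted p = 0.00545). Rangap1 had 91.5 to 103.7 TPM in the R206W cohort (median 99.0), against 108.4 to 132.9 TPM in the P209L cohort (median 113.5), with 6 libraries each, and again did not overlap (-0.23, SE 0.05, adjusted p = 0.00146). Kpna1 had 40.4 to 47.1 TPM in the R206W cohort, against 46.4 to 55.5 TPM in the P209L cohort (-0.26, SE 0.07, adjusted p = 0.00703). All 5 importin alpha genes had negative changes, between -0.26 and -0.15, of which those of Kpna1, Kpna3 and Kpna6 passed. Nup85 (Y complex) had 38.8 to 47.7 TPM in the R206W cohort, against 31.1 to 39.6 TPM in the P209L cohort (0.29, SE 0.07, adjusted p = 0.00369). Its pooled ranges overlapped, but under each ASO the cohorts were apart. The share of all genes with the cohorts apart under both ASOs is not given here. Other members of the Y complex did not pass, with changes between -0.10 and 0.17. The calls of Kpna3, Kpna6, Xpo7 and Nup62 ended when any 1 of 2, 9, 6 and 21 libraries was left out. Without the filter on low values Kpna6 (limma adjusted p = 0.0789), Xpo7 (0.0666) and Nup62 (0.0727) did not pass, and Nup62 did not pass after rescaling (0.113). For Kpna3 (adjusted p up to 0.0644) these were the Control ASO libraries replicate 2 of the R206W cohort and replicate 1 of the P209L cohort. For Kpna6 (up to 0.112) they were replicates 1, 2 and 3 with Hnrnph2 ASO and 2 and 3 with Control ASO of the R206W cohort, and replicates 1 and 3 with either ASO of the P209L cohort. For Xpo7 (up to 0.0847) they were replicate 3 with Hnrnph2 ASO and replicates 2 and 3 with Control ASO of the R206W cohort, and replicate 1 with Hnrnph2 ASO and replicates 1 and 3 with Control ASO of the P209L cohort. For Nup62 (up to 0.189) they were every WT library at 3 weeks except Control ASO replicate 1 of the R206W cohort and Control ASO replicate 2 of the P209L cohort, and also libraries outside the contrast, which share its estimate of spread. Those were all R206W and P209L libraries with Control ASO at 3 weeks, R206W with Hnrnph2 ASO replicate 1 and, at 8 weeks, P209L with Hnrnph2 ASO replicate 1, P209L with Control ASO replicate 2, WT with Hnrnph2 ASO replicate 2 and WT with Control ASO replicate 1.

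Cerebellar markers differed between the same libraries. They summed to 775.6 to 1068 TPM in the 6 WT libraries of the R206W cohort, against 519.2 to 649.2 TPM in the 6 of the P209L cohort, and 10 of 10 were called higher. Striatal and thalamic markers were lower in the R206W cohort, 6 of 8 called. With the cerebellar markers as a covariate 0 of the 48 genes were called, with Ran at -0.30 (limma adjusted p = 0.444), Rangap1 at -0.06 (adjusted p = 0.647) and Nup85 at 0.12 (adjusted p = 0.594). Other changes kept much of their size while losing the call, with Xpo7 at -0.34 (-0.25 without the covariate), Kpna6 at -0.21 (-0.20), Kpna1 at -0.21 (-0.26) and Kpnb1 at -0.19 (-0.22). Under that covariate 0.00604% of all genes were called. Since the cerebellar sums of the cohorts do not overlap, cohort and regional content cannot be told apart.

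**Figure D5:**
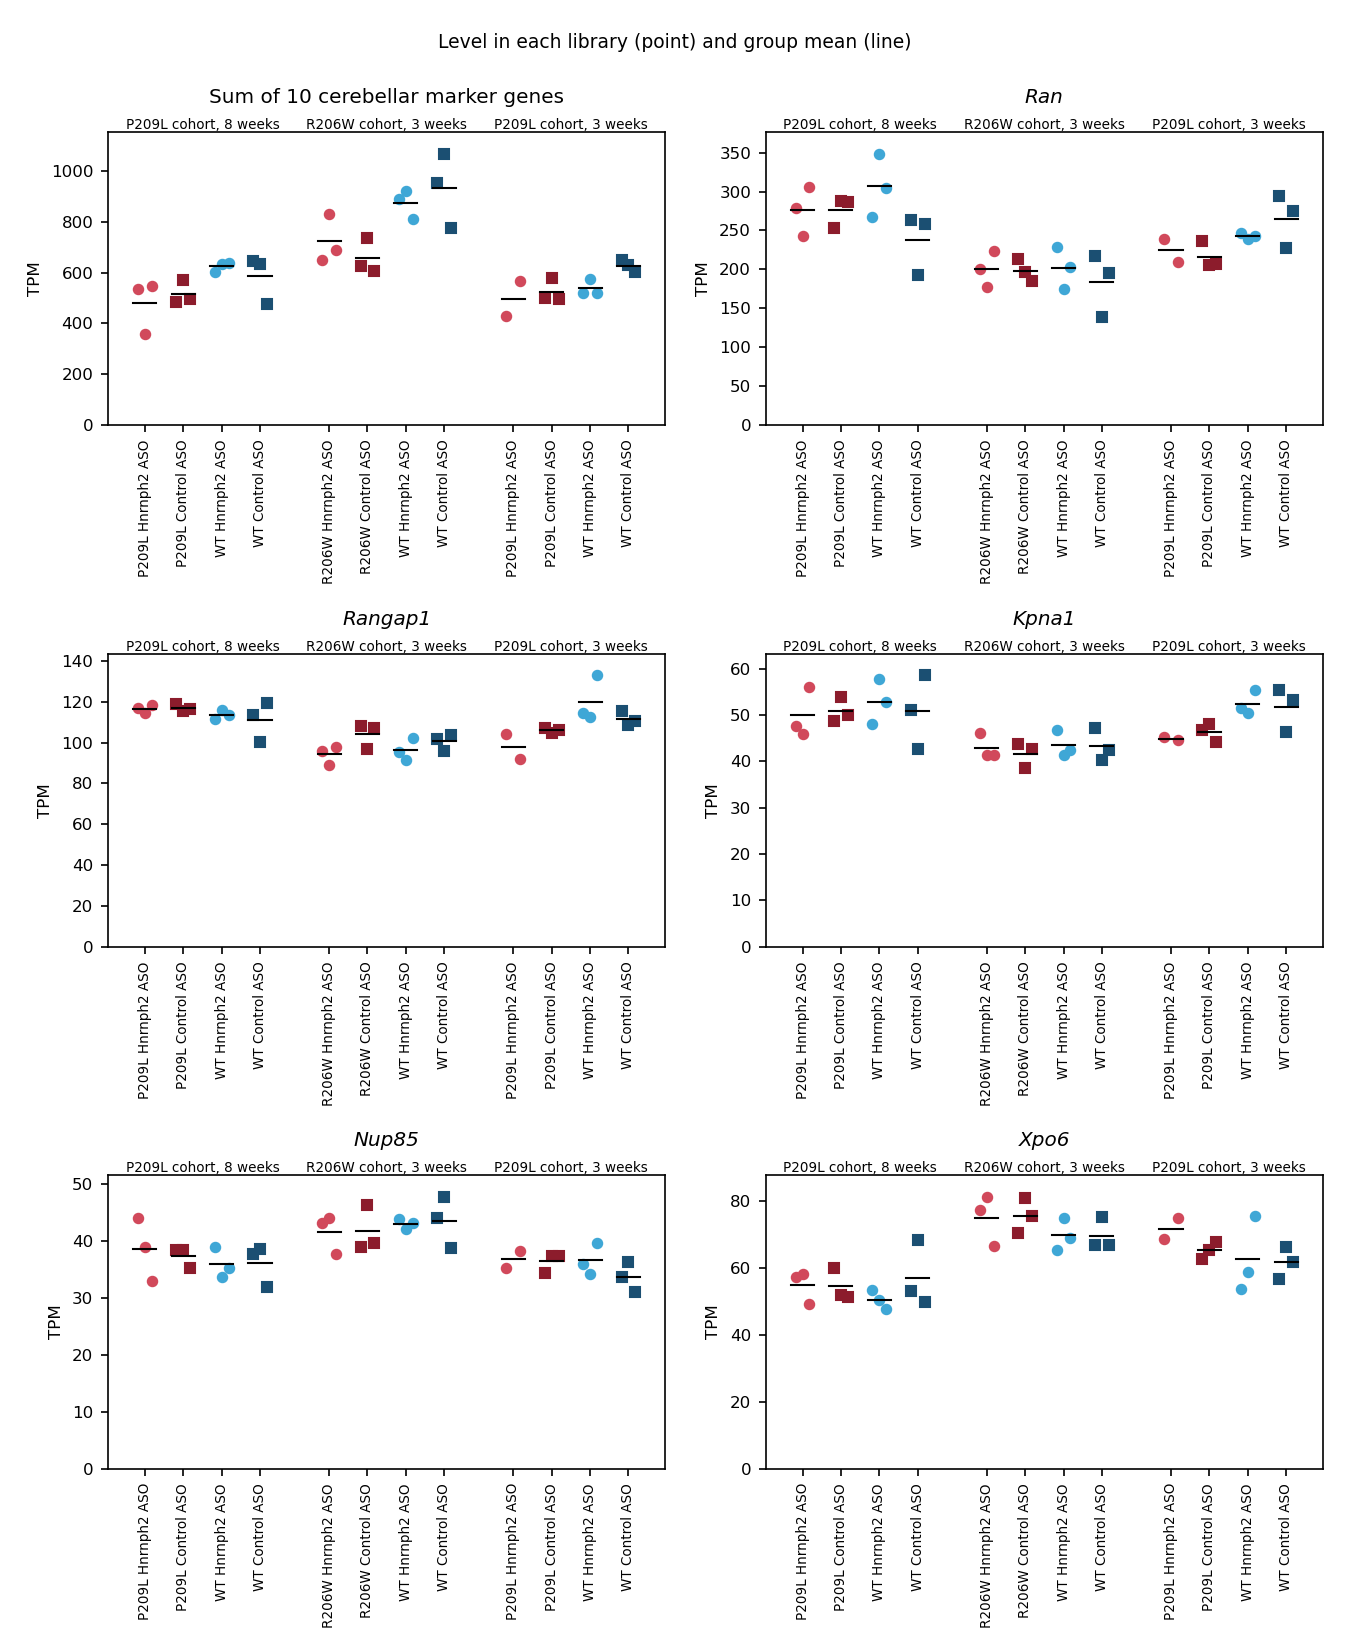
Sum of 10 cerebellar marker genes and levels of Ran, Rangap1, Kpna1, Nup85 and Xpo6 in each library (points, TPM), with the mean of each group (line), by cohort, genotype and ASO. The WT libraries of the R206W cohort have cerebellar sums of 775.6 to 1068 TPM and Ran levels of 138.2 to 228.6 TPM, against 519.2 to 649.2 TPM and 227.4 to 293.9 TPM in 3-week WT of the P209L cohort.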

How the data were processed

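Total RNA was made into stranded libraries, per the labels' protocols. TPM values per gene were deposited by the authors in 1 table, and the tools listed in the submitters' processing notes are RSEM, STAR (2.7.1a), Trim Galore and GATK (4.0.4.0), with build mm10. Read counts were not used here, so depth and counting error are unknown. TPM was tested with limma 3.58.1 in R 4.3.3 on log2(TPM + 1) where a gene's mean in the fit reached 1 TPM, two-sided, with a mean-variance trend and Benjamini-Hochberg adjustment over all genes within a comparison. Contrasts within a cohort used its own 4 groups, and averages, age and cohort used all 35 libraries in 12 groups. Means over cohorts are means of group means. The rescaling used median ratios over genes with at least 10 TPM in every library. Members and lists were chosen with earlier results of these data known. Named genes are those called in any comparison, otherwise the 3 with the smallest p, plus the Kpna genes and Ran, Ranbp1, Rangap1, Rcc1 and Nutf2. Beyond 12 calls the rule asked for groups apart, which no gene met for age, so all called genes are named there. Tests of differences between age effects and between mutation effects were chosen after seeing the data. The test was checked on simulated data with known log2 changes. Of changes of 0.25 it called 56.7% for mutation over the cohorts, 62.7% for age and 5.97% for mutation in P209L at 8 weeks. Of changes of 0.5 it called 91%, 98.5% and 58.2% in that order. A missing call within that single cohort therefore says little about changes of 0.25. The simulation drew noise independently for each gene and changed only a small share of genes. In the data 42.1% of all genes were called for age, so the simulated rates may not hold there. Coordinates come from RefSeq genes on GRCm38.p6, where all 48 symbols matched.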

Additional observations from a re-analysis of the deposited data

How the results depend on the processing

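Over 21 comparisons, 570 of 631 alternative counts of called genes stayed within 1.5 times the count reported and 61 did not. These totals include comparisons whose reported count was 0 and stayed 0, so they say little about the calls. Of 33 calls of single genes, 1320 alternative fits kept 1179, lost 141 and reversed 0. Many of these fits left out a library outside the comparison, which leaves the compared groups unchanged. Without the filter on low values the count was 1 for mutation, 0 for the ASO in mutants and 1 for age in P209L with Hnrnph2 ASO. Rescaling gave 2 for the ASO in mutants, 5 for age in P209L with Control ASO and 2 for age in WT with Hnrnph2 ASO. The cerebellar covariate gave 0 for mutation, 1 for age in P209L with Control ASO and 0 for cohort. Leaving out single libraries gave 1 to 3 genes for mutation, 0 to 1 for the ASO in mutants, 0 to 2 for treated mutants against control WT, 11 to 16 for age, 7 to 13 for cohort, and, for age by group, 0 to 5 in P209L with Hnrnph2 ASO, 0 to 2 in P209L with Control ASO, 1 to 4 in WT with Hnrnph2 ASO and 0 to 3 in WT with Control ASO. In the other 12 comparisons it gave 0 throughout. The lone library left in P209L with Hnrnph2 ASO at 3 weeks was assumed to vary like the other groups. Correlations of the deviations of same-numbered libraries lay between -0.197 and 0.318. All pairs passed 0.1 only for treated mutants against control WT at 8 weeks (0.123 to 0.24) and in the R206W cohort (0.104 to 0.204), not at 3 weeks in the P209L cohort (0.0269 and 0.0853), and the replicate block left that count at 0. A block on the first part of the animal-style name gave 0 for mutation in R206W. Elsewhere the replicate block gave 3 genes for mutation, with Nup210 at a limma adjusted p of 0.0495, 17 for age, 4 for age in WT with Hnrnph2 ASO and 13 for cohort. Omissions leave fewer samples and the absent filter adds genes tested, but the cause of the changed counts and calls was not tested. The share of all genes called under these alternatives is given only for the covariate in the cohort comparison. The other alternative counts therefore cannot be compared with it. Without read counts, the part of depth in genes under 10 TPM cannot be given.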

Other observations

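Related transport genes outside the 48 were also called with age in the P209L cohorts, beside 42.1% of all genes. Of 17 mRNA export genes tested, 2 were higher and 6 lower at 8 weeks. Ddx19b, a helicase of the cytoplasmic side of the pore, averaged 10.8 TPM at 8 weeks and 13.8 TPM at 3 weeks (log2 change -0.34, limma adjusted p = 3.83e-07), and the export cofactor Nxt2 averaged 27.2 TPM at 8 weeks and 22.5 TPM at 3 weeks (0.26, adjusted p = 0.000405). Of 7 other pore proteins 1 was higher and 3 were lower. Ahctf1 (ELYS), which starts pore assembly on chromatin, averaged 23.6 TPM at 8 weeks and 20.1 TPM at 3 weeks (0.22, adjusted p = 0.00134), and the membrane ring protein Ndc1 8.88 and 10.7 TPM (-0.24, adjusted p = 0.000582). Of 8 adaptors and other Ran-binding proteins 3 were higher and 2 lower. Rangrf (MOG1), which binds Ran, averaged 17.4 TPM at 8 weeks and 13.7 TPM at 3 weeks (0.33, adjusted p = 1e-04). Of 14 lamina and envelope genes 2 were higher and 2 lower, among them Lmnb1, a lamin, with 7.40 TPM at 8 weeks and 8.89 TPM at 3 weeks (-0.23, adjusted p = 0.00126). The cell type markers that moved with age moved in these libraries too, and their part was not tested.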
